A study of Mus musculus with 8 samples.

Results

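The forefoot of the mouse holds phalanges and joints close under the skin, and 10 genes of cartilage and bone were read in RNA from that site. The genes were Col2a1, Acan, Col9a1, Matn1, Col10a1, Panx3, Sp7, Alpl, Ibsp and Spp1. They were chosen by name, with their measured ratios after PACAP already known, so these ratios and the levels behind them are given as a description with no test. All 10 were on the array, among 29608 gene names, and 12 probes read them, with a pair of probes each for Ibsp and Col9a1.

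PACAP, pituitary adenylate cyclase-activating polypeptide, is a neuropeptide that was isolated from sheep hypothalamus and activates adenylate cyclase in pituitary cells. It acts through the receptor PAC1R, the product of Adcyap1r1, and also has the receptors VPAC1R and VPAC2R. It raises cyclic AMP in cells. The study asked how gene expression in footpad skin changes when PACAP is injected, and whether this needs PAC1R. Male C57BL/6 mice (WT) and male Adcyap1r1 -/- mice (KO), 9 to 10 weeks old and 6 per genotype, received 5 µL of PACAP at 1e-07 mol/L in saline with 0.1% bovine serum albumin, or the same saline with albumin alone (vehicle), into the forefoot skin. RNA was taken at 30 or 60 min. Both genotypes thus gave a vehicle and a PACAP sample at each time, 8 RNA samples in all. Each pair of vehicle and PACAP RNA was hybridized on 2 two-colour arrays with the dyes swapped, so a comparison is 1 pair of RNA samples read on 2 arrays. PAC1R is missing from the whole animal in the KO mice, and the sources used here do not say whether an RNA sample was pooled from several mice.

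In cartilage, chondrocytes lay down type II and type IX collagen, aggrecan and matrilins. As they enlarge near bone they switch to type X collagen, and osteoblasts, which depend on the transcription factor Sp7, then deposit mineral with alkaline phosphatase, bone sialoprotein and osteopontin.

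All WT arrays were on one slide and all KO arrays on the other, so a genotype effect cannot be told apart from a slide effect, while each slide held both times. The share of spots well above background ran from 78.6 to 94.5% for Cy5 and from 54 to 65.3% for Cy3, and none was saturated. The lowest Cy5 shares, 78.6 and 84.6%, were those of the WT arrays at 30 min. Adcyap1r1 was well above background in all 8 RNA samples, at log2 levels of 8.28, 8.26, 8.67 and 8.76 in WT (vehicle and PACAP at 30 min, then at 60 min) and 7.98, 7.91, 8.56 and 8.42 in KO. The level was lower in KO in each of the 4 pairings, by 0.11 to 0.36. The sources used here do not place this probe inside or outside the disrupted part of the gene, so it does not check the genotype labels.

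A ratio here is PACAP over vehicle, as the scanner software computed it on each array, with the geometric mean of the 2 arrays. Its direction rests on the dye labels of the single arrays. A scheme of the study lists the dye orientations in the other order, but the direction its text gives for muscle contraction genes is that of the dye labels, which were used here. A gene was called when this mean reached 2.0-fold or fell to 0.5-fold, with both arrays in the same direction and the software's p below 0.01 on both. That p covers error within a spot, not between animals. Where the values of both arrays follow a ratio in parentheses, the array with PACAP in Cy5 comes first. A level is a log2 intensity after background correction and normalization, averaged over both dyes. Levels of a genotype are given for vehicle and PACAP at 30 min and then for vehicle and PACAP at 60 min. Each probe binds with its own strength, so levels are compared only between samples for one probe. In whole tissue, fewer cells of a type and less RNA per cell cannot be told apart.

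Among the 10 genes, 6 were well above background on both arrays of all 8 RNA samples (Col2a1, Acan, Col9a1, Alpl, Ibsp and Spp1), and 9 on at least 1 array of every sample. Col2a1 and Acan, which define cartilage, were thus measured in every sample. Matn1, which encodes matrilin-1, was well above background in only 1 of its 16 readings, in vehicle-treated KO skin at 60 min, and the software set its ratio to 1 on all arrays. Its log2 level lay between 5.69 and 5.8 throughout, by a probe at chr4:130511217-130511276 of mm9.

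At 30 min in WT, 2 of the 10 genes were called, Panx3 up and Col10a1 down. Over all probes, 0.254% were called up and 0.0964% down. At 60 min in WT, Panx3 was called up, against 0.583% of all probes up and 0.109% down. At 30 min in KO, Col10a1 was called down, against 0.601% of all probes up and 0.107% down. At 60 min in KO none of the 10 was called, against 0.142% up and 0.15% down. As the genes were chosen on these ratios, the counts describe them and carry no weight beyond that. The median log2 ratio of the 10 was 0.08 at 30 min and 0.12 at 60 min for WT, against -0.02 and -0.03 for KO, beside 0.0 for all probes in each comparison, so the set as a whole lay near no change and single genes stood apart in opposite directions.

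**Figure D1:**
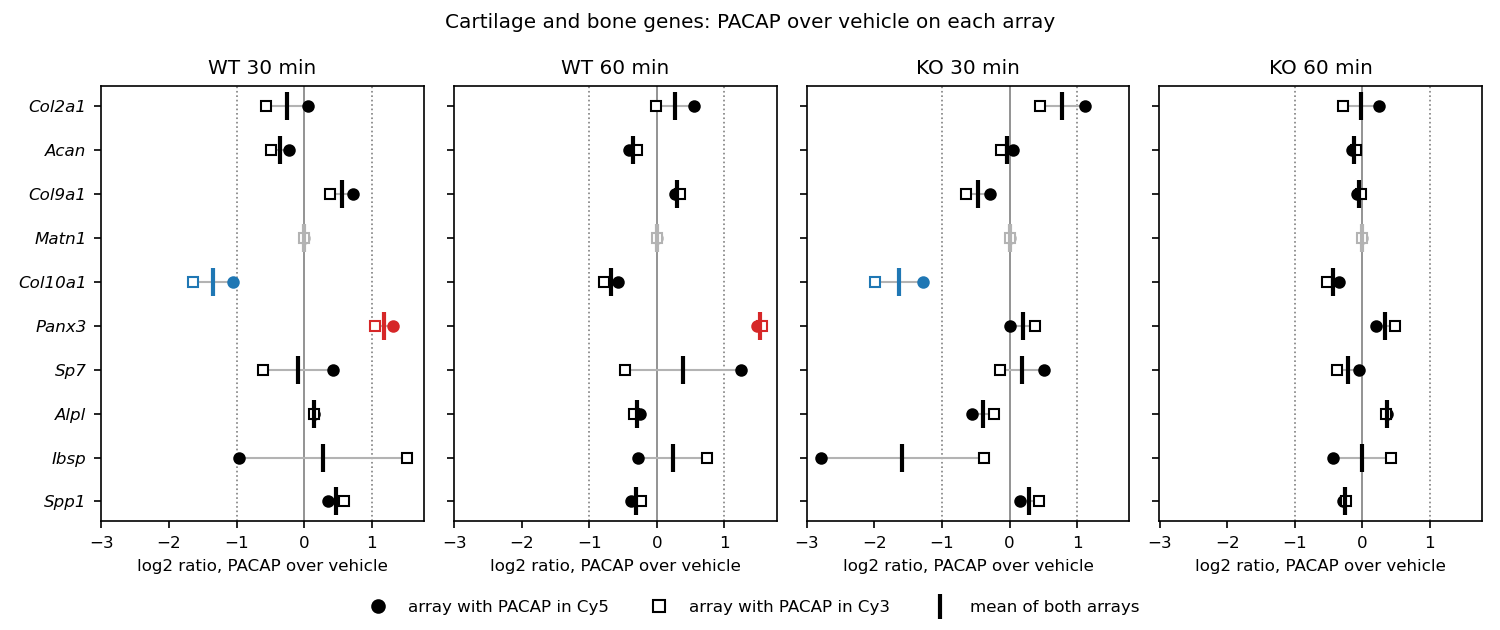
Log2 ratio of PACAP over vehicle (x axis) for the 10 genes in each of the 4 comparisons, by the brighter probe. Filled circles are the array with PACAP in Cy5, open squares the array with PACAP in Cy3 and vertical ticks their mean; red marks genes called up, blue genes called down and grey ratios set to 1, and dotted lines mark 2.0-fold and 0.5-fold. Col10a1 lies left of 0 on all 8 arrays, Panx3 lies right of 1 only in WT, and the 2 arrays of Ibsp lie far apart.

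Col10a1 encodes type X collagen, the product of hypertrophic chondrocytes. It was read by 1 probe at chr10:34116831-34116890 of mm9. In WT at 30 min its ratio was 0.392, with 0.48 on the array carrying PACAP in Cy5 and 0.32 on the other. In WT at 60 min the ratio was 0.625, with 0.673 and 0.58. In KO at 30 min it was 0.322, with 0.411 and 0.252. In KO at 60 min it was 0.738, with 0.785 and 0.693. The PACAP sample was the lower one on all 8 arrays, and in both genotypes the 30 min value lay further below 1 than the 60 min value. With 1 pair of RNA samples each, the difference between times and between genotypes was not tested.

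The log2 levels behind these ratios were 7.09 with vehicle and 6.61 with PACAP in WT at 30 min, and 7.63 and 7.26 at 60 min. In KO they were 7.06 and 6.45 at 30 min and 7.09 and 6.88 at 60 min. Both PACAP samples at 30 min were the lowest of the 8, and vehicle-treated WT skin at 60 min was the highest. In KO at 30 min the PACAP sample was well above background on only 1 of its 2 arrays. On the background-corrected intensities, which draw dim signals together, the ratios were 0.714, 0.773, 0.652 and 0.865 in the same order, and Col10a1 was then called in no comparison.

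The promoter of Col10a1 is shown because this gene had the same direction on every array. The sequence is the 250 bases before the RefSeq start, chr10:34389731-34389980 of GRCm38.p6, plus strand, with capitals marking a match to TATAAA, the TATA box.
Col10a1: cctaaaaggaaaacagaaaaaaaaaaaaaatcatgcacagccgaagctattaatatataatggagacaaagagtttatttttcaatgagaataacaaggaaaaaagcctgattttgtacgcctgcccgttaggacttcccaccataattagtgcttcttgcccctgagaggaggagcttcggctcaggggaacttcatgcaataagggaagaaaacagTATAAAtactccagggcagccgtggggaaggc
The match lies at -32 to -27 from the start. A total of 4 motifs was searched on both strands, and 12.4% of 32851 mouse promoters of the same length held TATAAA. The others were CCAAT, the CCAAT box, held by 33.8%, TGACG, one side of the cyclic AMP response element, held by 17.8%, and ACCACA, the core bound by RUNX factors, held by 14%. None of these 3 was in the Col10a1 window.

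Panx3 encodes pannexin 3, a channel protein of chondrocytes and osteoblasts that releases ATP and that the study also places in skin. It was read by 1 probe at chr9:37468048-37468107 of mm9, on the minus strand. In WT at 30 min its ratio was 2.27, with 2.49 on the array carrying PACAP in Cy5 and 2.07 on the other. In WT at 60 min it was 2.87, with 2.81 and 2.94. In KO it was 1.15 at 30 min, with 1.01 and 1.3, and 1.27 at 60 min, with 1.15 and 1.4. All 4 WT arrays gave a value above 2 and all 4 KO arrays a value of 1.4 or less. Whether the genotypes differ was not tested, since genotype cannot be told apart from slide.

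The log2 levels of Panx3 in WT were 6.46 with vehicle and 6.79 with PACAP at 30 min, and 6.53 and 7.17 at 60 min. In KO they were 6.37 and 6.40 at 30 min and 6.96 and 7.13 at 60 min. The vehicle-treated KO sample at 60 min was itself higher than either WT vehicle sample, and lay between the WT samples given PACAP. The vehicle samples at 30 min were well above background on 1 of 2 arrays in both genotypes. The ratios on background-corrected intensities were 1.25 and 1.55 for WT at the 2 times, and 1.02 and 1.13 for KO, below the threshold for a call.

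Ibsp encodes bone sialoprotein, an acidic matrix protein that seeds mineral. Both of its probes lie on chromosome 5, the brighter at chr5:104740413-104740472 and the dimmer at chr5:104739720-104739779 of mm9. The last 30 bases of each probe are shown because the probes gave different ratios, with capitals marking AATAAA, the usual polyadenylation signal.
Ibsp brighter probe: ctggaacaaacttatgctaAATAAAtgact
Ibsp dimmer probe: gcttttgtttgtagtgggcttcttctttta
Both probes are 60 bases long, and these 30 bases held AATAAA in the brighter probe only.

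In KO at 30 min the brighter Ibsp probe gave a ratio of 0.333, with 0.145 on the array carrying PACAP in Cy5 and 0.767 on the other. The second array did not pass the p threshold of the scanner software, so this probe was not called. The dimmer probe gave 0.29, with 0.329 and 0.256, and was called down, although on 1 of the 2 arrays its PACAP channel was not well above background. Both probes read less Ibsp after PACAP in this comparison on both arrays.

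In WT at 30 min the brighter probe gave 0.512 on one array and 2.87 on the other, for a mean of 1.21, and the dimmer probe gave 1.36 and 0.571, for a mean of 0.879. In WT at 60 min the means were 1.18 (0.823 and 1.68) and 1.19 (1.33 and 1.07). In KO at 60 min the means were 0.995 (0.741 and 1.34) and 0.866 (0.855 and 0.878). The brighter probe gave the higher ratio on the array with PACAP in Cy3 in all 4 comparisons. The log2 gap between its arrays was 2.49, 1.03, 2.4 and 0.85, where probes well above background in both samples had a median gap of 0.16 to 0.18 and a 95th percentile of 0.66 to 0.76. Outside KO at 30 min, no comparison had both arrays of the brighter probe on the same side of 1. On background-corrected intensities its ratios were 1.09 and 1.14 for WT at the 2 times, then 0.629 and 1.03 for KO.

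**Figure D2:**
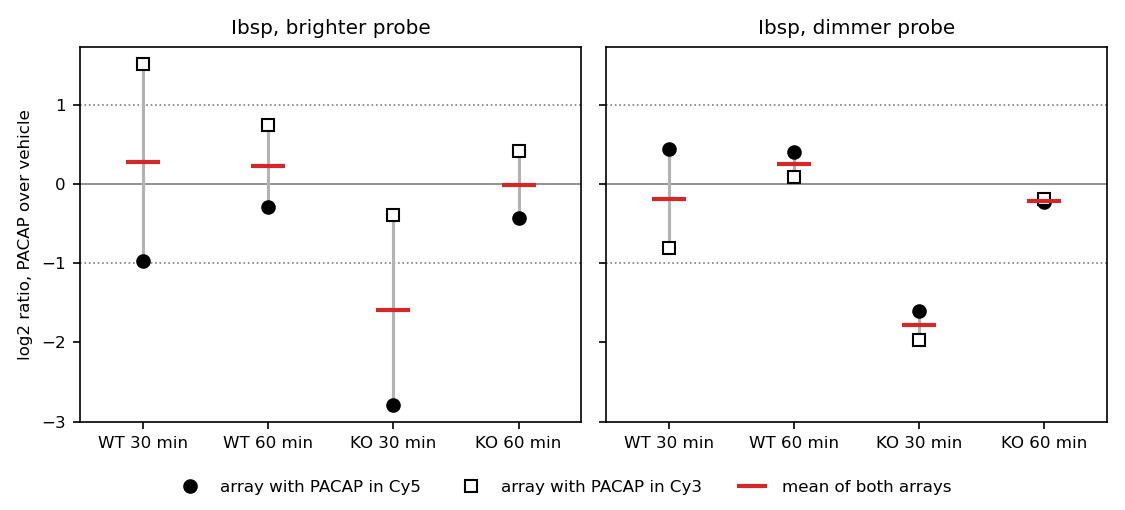
Log2 ratio of PACAP over vehicle (y axis) for the brighter and the dimmer Ibsp probe in the 4 comparisons. Circles and squares are the arrays with PACAP in Cy5 and in Cy3, red bars their mean, and dotted lines 2.0-fold and 0.5-fold; for the brighter probe the squares lie above the circles in every comparison, and KO at 30 min is the only comparison in which both probes lie below 0 on both arrays.

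The log2 levels of Ibsp by the brighter probe in WT were 6.54 with vehicle and 6.66 with PACAP at 30 min, and 7.73 and 7.92 at 60 min. In KO they were 7.21 and 6.54 at 30 min and 7.49 and 7.53 at 60 min. The dimmer probe gave 6.41, 6.37, 7.49 and 7.63 in WT, against 6.77, 6.28, 7.43 and 7.34 in KO, in the same order. The 2 probes had a Pearson correlation of 0.98 over the 8 RNA samples. In both, every 60 min sample was higher than every 30 min sample.

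Spp1 encodes osteopontin, a secreted phosphoprotein of bone that macrophages and other cells also make, and it neighbours Ibsp on chromosome 5, with its probe at chr5:104868502-104868561 of mm9. For WT its ratio was 1.38 at 30 min (1.28 and 1.5) and 0.809 at 60 min (0.771 and 0.848). For KO it was 1.22 at 30 min (1.11 and 1.35) and 0.834 at 60 min (0.818 and 0.85). It was above 1 on all 4 arrays at 30 min and below 1 on all 4 at 60 min, and called in none. Its log2 levels were 7.77, 8.11, 8.92 and 8.71 in WT, against 8.35, 8.6, 8.84 and 8.64 in KO. Every 60 min sample was higher than every 30 min sample here too, though in KO given PACAP the step was only 0.04.

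The promoters of Ibsp and Spp1 are shown because these neighbours had the same order of the 2 times. Each is the 250 bases before the RefSeq start, plus strand of GRCm38.p6, Ibsp at chr5:104299037-104299286 and Spp1, by the first of its 2 starts, at chr5:104434861-104435110. Capitals mark in Ibsp the cyclic AMP motif as given above and the CCAAT and TATA boxes, both on the other strand. In Spp1 they mark a match to the letters TATAAA, the RUNX core and, on the other strand, the CCAAT box.
Ibsp: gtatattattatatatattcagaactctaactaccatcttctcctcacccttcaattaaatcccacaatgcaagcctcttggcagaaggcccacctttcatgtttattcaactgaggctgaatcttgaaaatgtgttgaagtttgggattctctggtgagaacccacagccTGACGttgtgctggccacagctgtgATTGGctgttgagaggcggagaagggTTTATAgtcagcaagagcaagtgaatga
Spp1: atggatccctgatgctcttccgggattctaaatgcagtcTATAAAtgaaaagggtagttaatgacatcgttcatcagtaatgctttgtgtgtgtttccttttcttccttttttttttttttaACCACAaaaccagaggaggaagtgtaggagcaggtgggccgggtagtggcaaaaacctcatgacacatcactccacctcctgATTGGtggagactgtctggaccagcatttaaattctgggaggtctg
In Ibsp the matches lie at -79 to -75, -54 to -50 and -28 to -23. In Spp1 they lie at -211 to -206, -128 to -123 and -46 to -42. The TATAAA match of Spp1 lies far upstream of those in Ibsp and Col10a1, so it is not named a TATA box. The inverted CCAAT box is the match that both promoters hold at a similar distance from the start. The set of RefSeq promoters used here held 7 of the 10 genes, and Panx3, Col2a1 and Sp7 were not in that set.

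Col2a1 encodes type II collagen, the main fibre of cartilage, and was read at chr15:97806071-97806130 of mm9. For WT its ratio was 0.842 at 30 min (1.04 and 0.68) and 1.2 at 60 min (1.46 and 0.988). For KO it was 1.72 at 30 min (2.16 and 1.37) and 0.989 at 60 min (1.19 and 0.822). Only KO at 30 min had both arrays on one side of 1, and it was under the fold threshold and missed the p threshold of the scanner software on the array with PACAP in Cy3. By fold alone its 1.72 lies just outside, where Panx3 at 2.27 lies just inside. The log2 levels were 8.92, 8.73, 8.94 and 9.23 in WT, against 8.07, 8.75, 8.96 and 8.93 in KO. The vehicle sample of KO at 30 min was the lowest of the 8, while the PACAP sample of that pair lay at 8.75, in the range of the other 6.

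Acan encodes aggrecan, the large proteoglycan that holds water in cartilage, and was read at chr7:86259741-86259801. For WT its ratio was 0.781 at 30 min and 0.782 at 60 min, and for KO 0.972 and 0.917. The 4 WT arrays lay between 0.713 and 0.856, and the 4 KO arrays between 0.897 and 1.04. The log2 levels were 7.13, 6.96, 7.78 and 7.54 in WT, against 6.97, 6.94, 7.28 and 7.2 in KO. Acan was lower at 30 than at 60 min in each genotype and treatment.

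Col9a1 encodes a chain of type IX collagen, which coats type II fibrils. Its probes lie at chr1:24259125-24259184 (brighter) and chr1:24201545-24201604 (dimmer). By its brighter probe the ratio was 1.47 in WT at 30 min (1.65 and 1.31) and 1.23 at 60 min (1.2 and 1.27), and 0.724 in KO at 30 min (0.818 and 0.641) and 0.97 at 60 min (0.952 and 0.988). All 4 WT arrays lay above 1 and all 4 KO arrays below 1, and none of the comparisons was called. Of 28408 probes with a ratio on every array, 0.862% had this split and 0.75% the opposite one. The log2 levels were 6.94, 7.19, 7.06 and 7.23 in WT, against 6.91, 6.69, 6.92 and 6.89 in KO. The dimmer probe had ratios of 0.86, 0.92, 1.35 and 0.994, but it was well above background on 1 of 2 arrays in 7 of the 8 samples, and its arrays lay on opposite sides of 1 in all 4 comparisons. For WT these were 1.76 and 0.421 at 30 min, then 2.18 and 0.388 at 60 min. For KO they were 1.97 and 0.929, then 1.07 and 0.922.

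Sp7 encodes osterix, the transcription factor that osteoblasts need, and was read at chr15:102187692-102187751. For WT its ratio was 0.944 at 30 min (1.35 and 0.659) and 1.31 at 60 min (2.38 and 0.724). For KO it was 1.14 at 30 min (1.42 and 0.909) and 0.862 at 60 min (0.966 and 0.769). Of the 4 comparisons, 3 thus had arrays on opposite sides of 1. The log2 levels were 6.33, 6.33, 6.48 and 6.47 in WT, against 6.55, 6.65, 6.98 and 6.87 in KO. All KO samples were higher than all WT samples, and 3 of the 4 WT samples were well above background on only 1 array.

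Alpl encodes tissue-nonspecific alkaline phosphatase, which frees phosphate for mineral and is also made outside bone. It was read at chr4:137297658-137297716. For WT its ratio was 1.11 at 30 min (1.11 on both arrays) and 0.815 at 60 min (0.844 and 0.788). For KO it was 0.761 at 30 min (0.681 and 0.85) and 1.28 at 60 min (1.29 and 1.28). The arrays of each comparison were on one side of 1, with no order by time that the genotypes shared. Its log2 levels spanned 6.61 to 6.88.

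**Figure D3:**
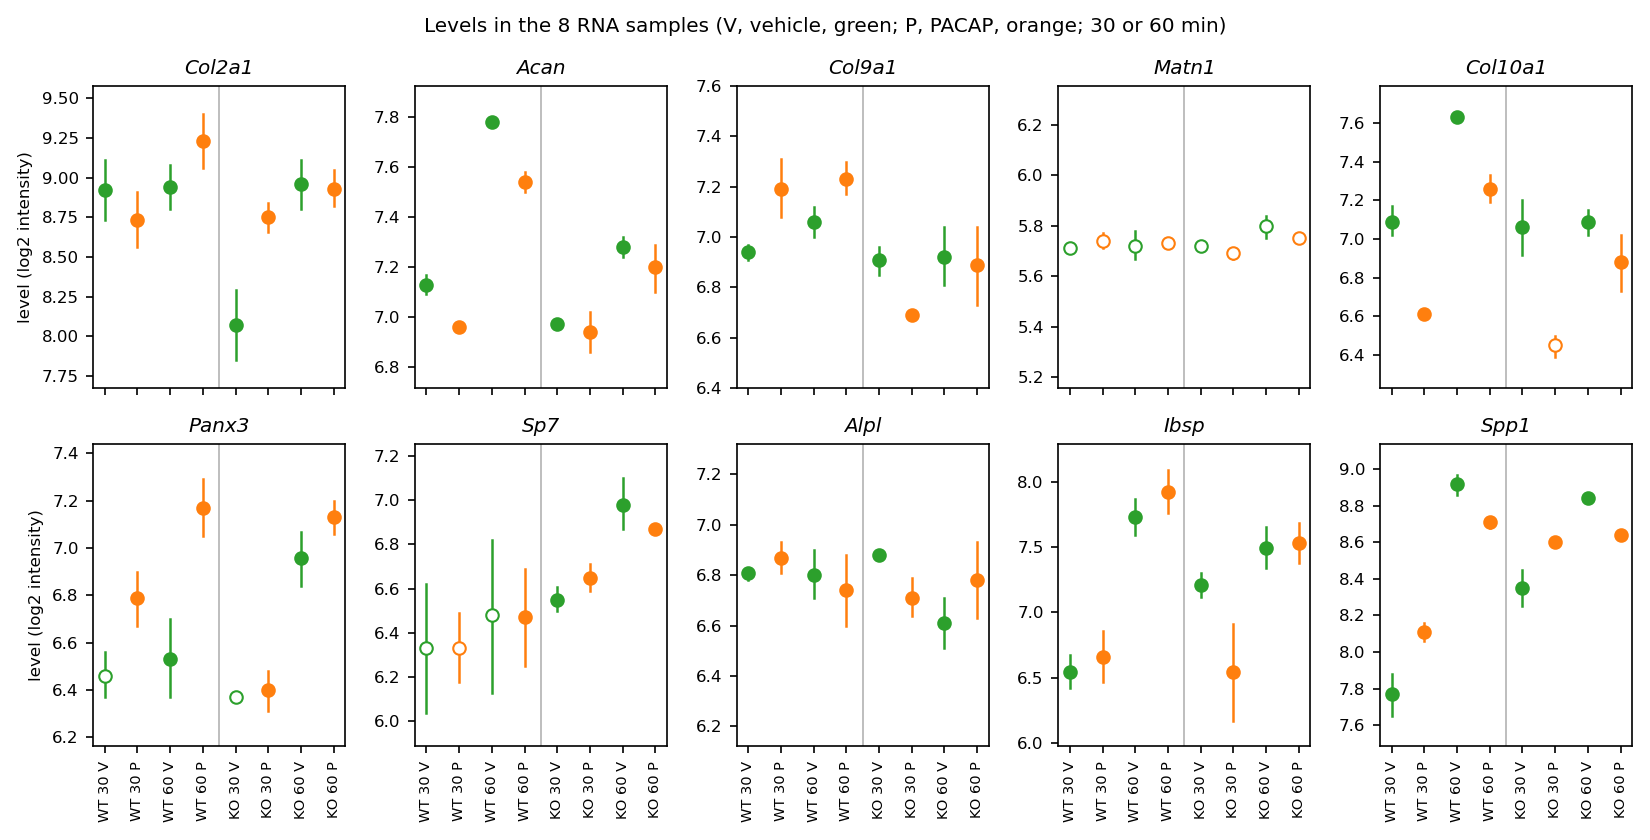
Log2 level (y axis, each panel on its own scale) of the 10 genes in the 8 RNA samples, WT left and KO right of the grey line, by the brighter probe. Points are the mean of both dye readings and lines join the readings; filled points were well above background on both arrays and open points on 1 or none. The 60 min samples of Ibsp, Spp1 and Acan lie above the 30 min samples within each genotype, and Matn1 stays flat near background.

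Levels were also compared between the sampling times. From 30 to 60 min the log2 level of Ibsp differed by 1.19 with vehicle and 1.26 with PACAP in WT, and by 0.28 and 0.99 in KO. That of Spp1 differed by 1.15 and 0.6 in WT, against 0.49 and 0.04 in KO. That of Acan differed by 0.64 and 0.58 in WT, against 0.31 and 0.26 in KO. Col10a1 (0.54, 0.65, 0.02 and 0.43), Panx3 (0.07, 0.39, 0.58 and 0.73), Sp7 (0.15, 0.14, 0.43 and 0.22), Col2a1 (0.02, 0.49, 0.89 and 0.18) and Col9a1 (0.12, 0.04, 0.02 and 0.19) were also higher at 60 min in all 4 pairings, in the same order. The dimmer Col9a1 probe, near background, was higher at 60 min in none (-0.01, -0.06, 0.0 and -0.12). Alpl was the exception among the measured genes, at 0.0, -0.13, -0.27 and 0.07. Over all 24897 tested probes, 18.5% were higher at 60 min in all 4 pairings. The 10 genes were chosen with these levels known, so their count of 8 is a description. The median over all tested probes lay between -0.02 and 0.03. Each slide holds both times, so these are differences within a slide, but between different arrays. The Cy5 share of spots well above background was 78.6 and 84.6% in WT at 30 min, against 86.1 and 91.6% at 60 min. In KO it was 90.8 and 88.7%, against 90.4 and 94.5%. The part of array quality in the time differences was not tested.

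**Figure D4:**
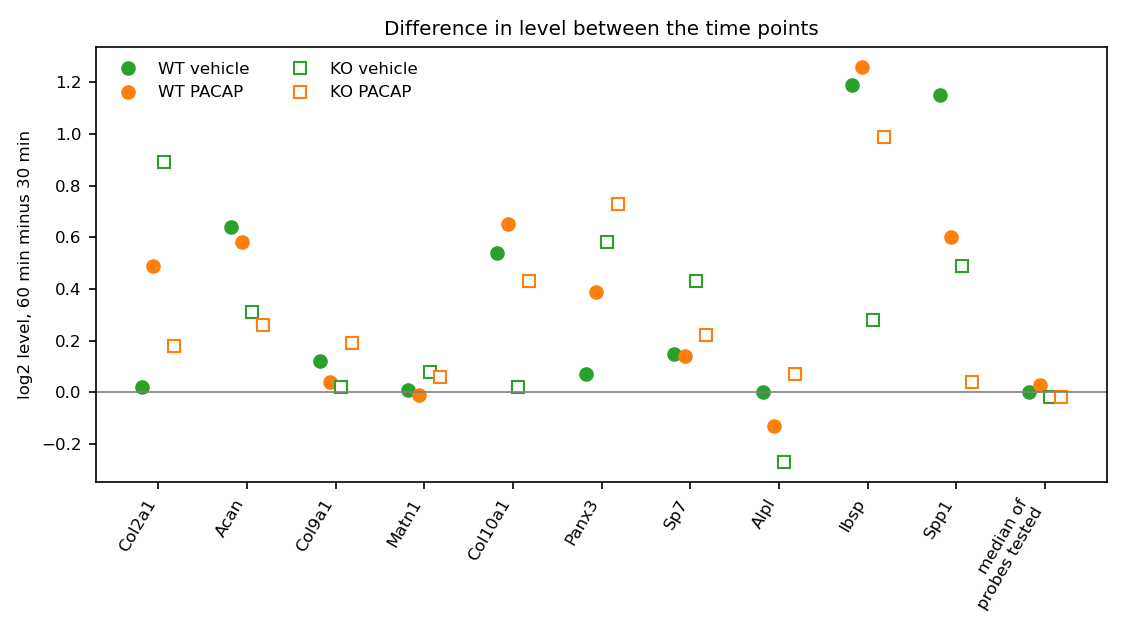
Difference in log2 level between 60 and 30 min (y axis) for each of the 10 genes and for the median of all tested probes, in WT (filled circles) and KO (open squares) with vehicle (green) or PACAP (orange). All points of Ibsp, Spp1, Acan, Col10a1, Panx3, Sp7, Col2a1 and Col9a1 lie above 0, and those of Alpl lie on both sides.

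Genes outside the 10 were tested for time. In the 4 vehicle samples, limma called 0 of 24897 probes (0.0%) at an adjusted p below 0.05, with 4385 (17.6%) at an unadjusted p below 0.05, of which 1663 (6.68%) were higher at 60 min. With all 8 RNA samples and the array pair as a random block, a fit added after the data were seen, limma called 1759 of 26348 probes higher at 60 min (6.68%) and 1075 lower (4.08%). In that fit, 4 of 15 other cartilage matrix genes were higher at 60 min and none lower, 2 of 16 bone matrix and mineral genes were higher and 1 lower, 2 of 11 chondrocyte regulators were higher and 1 lower, and 2 of 13 osteoclast genes were higher and none lower. Of the lists for other tissues, 2 of 11 bone marrow and red cell genes were called higher and 1 of 9 eccrine gland genes lower, with no call among skeletal muscle, epidermis, dermal fibroblast, tendon, adipocyte or nail and hair keratin genes. In the 4 vehicle samples alone, the higher mean was at 60 min for 10 of the 15 other cartilage matrix genes (median log2 difference 0.12), 9 of the 16 bone genes (0.05), 6 of the 13 osteoclast genes (-0.01) and 3 of the 11 chondrocyte regulators (-0.18), beside 12225 of all 24897 probes. The cartilage and bone lists thus had no common direction there. In the vehicle samples 10 of the 11 bone marrow and red cell genes had the higher mean at 60 min, with a median log2 difference of 0.33. So had 15 of 18 skeletal muscle genes (median 0.22) and 8 of 10 nail and hair keratin genes (median 1.19), but only 1 of 12 epidermis genes (median -0.36) and 1 of 9 eccrine gland genes (median -0.28). The part of these tissues in the time differences of the 10 genes was not tested.

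Among the called genes, Cytl1, a cytokine-like protein of cartilage, was higher at 60 min by 0.87 on the log2 scale (limma adjusted p = 0.0158). Ucma, a small matrix protein of growth cartilage, was higher by 0.87 (adjusted p = 0.0234), and Mepe, a matrix protein of osteocytes, by 0.75 (adjusted p = 0.0188). Ocstamp, which osteoclast precursors need to fuse, was higher by 0.57 (adjusted p = 0.0137), and Omd, which encodes osteomodulin, by 0.56 (adjusted p = 0.0337). Sox9, the transcription factor that sets chondrocyte fate and also acts in skin appendages, was lower by 0.69 on that scale (log2 difference -0.69, adjusted p = 0.0369), and Fgf23, the phosphate hormone of bone, was lower (log2 difference -0.56, adjusted p = 0.0352). Also called were Chad (0.56, adjusted p = 0.0417), Oscar (0.34, adjusted p = 0.0308), Runx3 (0.28, adjusted p = 0.0329) and Pth1r (0.25, adjusted p = 0.0361), all higher at 60 min. In the lists of other tissues, Slc4a1 (0.43, adjusted p = 0.0216) and Prtn3 (0.31, adjusted p = 0.0309) were higher, and Foxa1 was lower (log2 difference -0.34, adjusted p = 0.0459). The limma fit of the vehicle samples alone called none of the genes named here, with adjusted p-values from 0.193 (Mepe) to 0.349 (Pth1r). The genes of cartilage and bone did not all take one direction.

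For genotype, limma on the 4 vehicle samples called 0 of 24897 probes (0.0%) at an adjusted p below 0.05, with 1254 at an unadjusted p below 0.05. Of the other cartilage matrix genes tested, 3 of 15 had the higher mean in KO, as had 7 of 16 bone matrix and mineral genes, 4 of 11 chondrocyte regulators and 11 of 13 osteoclast genes, beside 13205 of the 24897 probes (53%). Lists of other tissues had the higher mean in KO as well, with 11 of 12 epidermis genes, 9 of 10 dermal fibroblast genes (median log2 difference 0.38), 9 of 10 nail and hair keratin genes (0.76) and 13 of 18 skeletal muscle genes, where the osteoclast median was 0.11. Their part in the osteoclast count was not tested. With all 8 RNA samples, in the fit added after the data were seen, limma called 897 of 26348 probes for genotype, 434 higher and 463 lower in KO. There too genotype cannot be told apart from slide.

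For the other genes of these tissues the ratio of PACAP over vehicle ran from 0.443 to 1.86 over the 4 comparisons, and the list medians lay near 1. Of 17 other cartilage matrix genes, 12 chondrocyte regulators and 14 osteoclast genes none was called in any comparison. Of 21 bone matrix and mineral genes, Phex, an endopeptidase of osteoblasts and osteocytes that keeps phosphate in balance, was called down in KO at 30 min with a ratio of 0.443 (0.457 and 0.43), in a PACAP sample well above background on 1 of 2 arrays. The median log2 ratio of the cartilage matrix list was 0.01, -0.04, -0.13 and -0.03 (WT at 30 and 60 min, then KO), that of the chondrocyte regulators 0.05, 0.01, -0.27 and 0.05, that of the bone list 0.02, 0.0, -0.13 and -0.07 and that of the osteoclast list 0.0, 0.06, 0.05 and 0.02. Several bone genes were near background. Dmp1, Sost and Runx2 were well above background on both arrays of no sample.

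Genes of neighbouring tissues moved with some of the same comparisons. All 18 skeletal muscle genes were well above background in every sample. In WT at 30 min all 18 had a ratio above 1 with a median log2 ratio of 0.8, and 4 were called up, among them Myh4 at 2.75 and Myh1 at 2.67, which encode fast myosin heavy chains, and Myot at 2.33. In KO at 30 min 17 of 18 were below 1 with a median of -0.71, and 4 were called down, among them Myh4 at 0.402, Actn3 at 0.433 and Myh1 at 0.445. The summed log2 level of the list was 17.62 with vehicle and 18.47 with PACAP in WT at 30 min. For KO at 30 min it was 18.21 and 17.54. At 60 min it lay between 18.03 and 18.15. The 2 lowest ratios of Col10a1 were those at 30 min, where the muscle medians had opposite signs in WT and KO.

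In KO at 30 min, 11 of 12 epidermis genes were also below 1, with a median log2 ratio of -0.65, and Krt10 (0.365) and Krt1 (0.455), keratins of the upper epidermis, were called down. The summed log2 level of that list was 19.06 with vehicle and 18.41 with PACAP. Of the 10 dermal fibroblast genes, 9 were below 1, with a median of -0.44 and summed levels of 17.39 and 16.88, and of the 7 tendon genes 5 were below 1, with a median of -0.4. Of the 10 eccrine gland genes, 8 were below 1, with a median of -0.54 and summed levels of 15.48 and 14.88. In WT at 30 min the dermal fibroblast genes lay the other way, with all 10 above 1, a median of 0.36 and summed levels of 17.12 with vehicle and 17.53 with PACAP, while 7 of the 10 eccrine gland genes were below 1, with a median of -0.17. Of 10 nail and hair keratin genes, 9 were called up in WT at 60 min, among them Krt33a at 9.56-fold, Krt33b at 8.27-fold and Krt36 at 5.69-fold. There were 6 called up in KO at 30 min, led by Krt33a (4.62), Krt33b (4.57) and Krt35 (4.32), and 1 down, and in WT at 30 min Krt35 was called up at 2.2-fold and Krt36 down at 0.1-fold. Krt36 was also called down at both times in KO (0.425 and 0.254). Of 18 bone marrow and red cell genes 1 was called, Hbb-b1 of adult haemoglobin, down in WT at 60 min at 0.413. In KO at 30 min, where Col10a1 and Ibsp were low, 12 of the 18 were above 1 and none below, with a median log2 ratio of 0.17. The 10 housekeeping genes had medians of 0.15, -0.02, -0.05 and 0.03. The part of muscle, epidermis, dermis, gland or keratin RNA in the ratios of Col10a1, Ibsp and Panx3 was not tested.

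**Figure D5:**
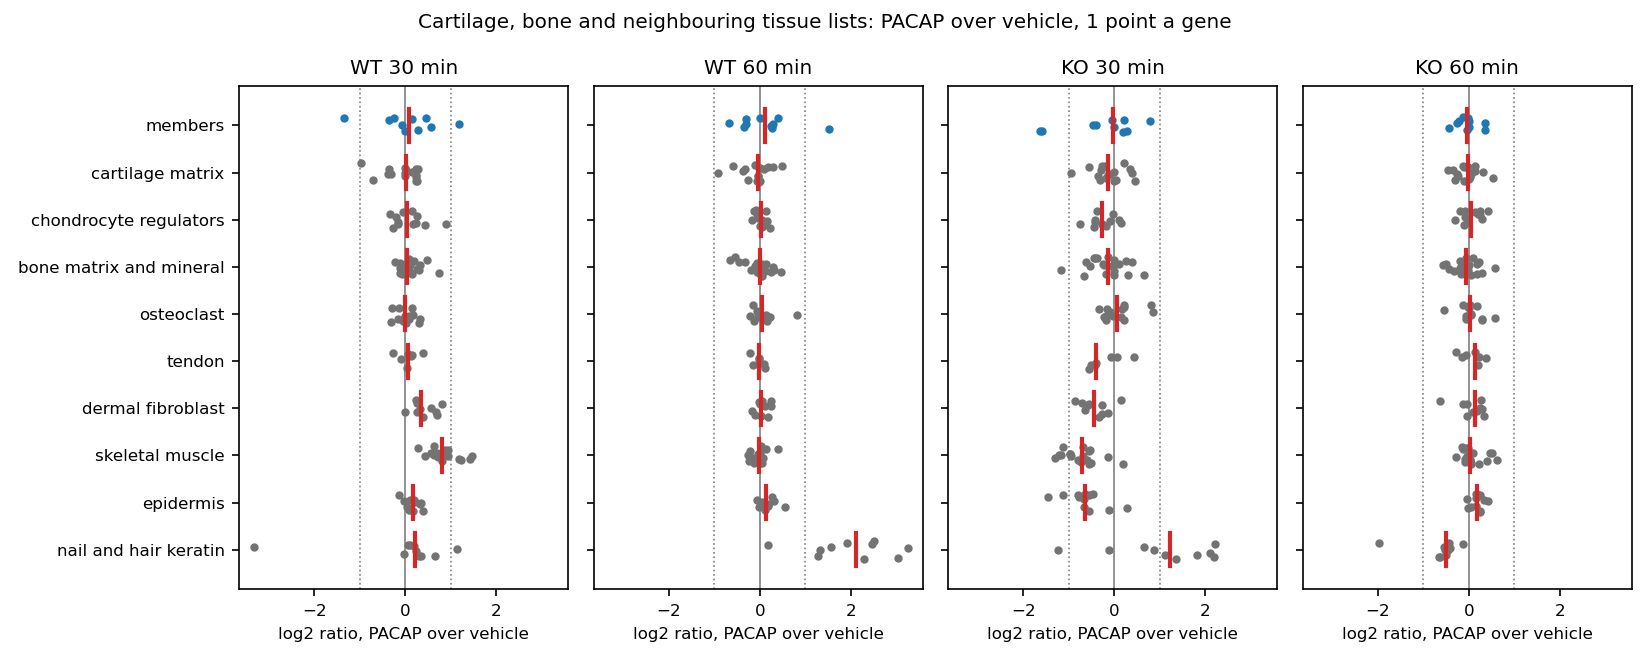
Log2 ratio of PACAP over vehicle (x axis) of the 10 members (blue) and of the genes of 9 other lists (grey), 1 point a gene by its brighter probe, in each comparison. Red bars are list medians and dotted lines 2.0-fold and 0.5-fold; the cartilage, bone and osteoclast medians stay between -0.27 and 0.06, and the skeletal muscle median lies at 0.8 in WT and -0.71 in KO at 30 min.

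Across the 8 RNA samples the 10 genes did not follow one course. Of the 45 pairs of genes, 33 had a Pearson correlation of log2 levels above 0, with a median of 0.34. Without Matn1, whose 9 pairs rest on levels near background, 25 of 36 were above 0, again with a median of 0.34. The highest was 0.86, for Acan and Col10a1, and the lowest -0.7, for Sp7 and Alpl. These are descriptions over 8 samples that share arrays in pairs. The mean standardised level of the 10 was lowest in KO with PACAP at 30 min (-0.8) and highest in WT with PACAP at 60 min (0.66), and without Matn1 these samples were again the lowest (-0.73) and the highest (0.75).

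The 10 gene names whose level was most like that mean, of 16144 measured on both arrays of all samples, were Btbd1, Gmpr, Trim54, Sdf4, Kank3, Klf15, Glt8d2, Lin28a, Nfil3 and Sbk1, with Pearson correlations of 0.97 to 0.99 over 8 samples. The list is not stable. Only 2 of the 10, Gmpr and Trim54, stayed among the 10 highest without the samples of KO at 30 min, where Nfil3 ranked 89 and Klf15 348. With ties counted, 4 had a Spearman rank within 10, and 4 stayed without Matn1 in the mean, a setting chosen after the data were seen. None of the 10 is on the cartilage, bone or osteoclast lists. Nfil3, a transcription repressor of the circadian and immune systems, went from 8.91 and 9.04 at 30 min to 10.31 and 10.24 at 60 min in WT, and from 8.6 and 8.52 to 9.85 and 9.98 in KO. Klf15, a glucocorticoid-responsive transcription factor, went from 8.63 and 8.88 to 9.38 and 9.39 in WT and from 8.65 and 8.43 to 9.51 and 9.34 in KO. In both, every 60 min sample was higher than every 30 min sample.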

How the data were processed

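RNA of mouse forefoot skin was hybridized on 8 two-colour Agilent arrays. The deposited scanner files, made by the authors with Agilent Feature Extraction (12.0.3.1 in the file headers, 11.0.1.1 in the submitters' processing notes, and another, earlier version in the study's methods), give for each spot a log10 ratio of Cy5 over Cy3, its p-value and the intensity of both channels. The deposited series table holds a ratio per spot that equals processed Cy5 over processed Cy3 signal and was used as an alternative. Probe positions are those of the files, in mm9.

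Control spots and outlier spots were left out, spots of a probe averaged, ratios turned to PACAP over vehicle and the 2 arrays of a pair averaged. Levels used limma 3.58.1 (normexp with offset 50, loess, Aquantile), and each gene was read by its brightest probe. Vehicle samples were compared with lmFit and eBayes over all probes well above background in at least 1 of them, with Benjamini-Hochberg adjustment. Both dye-swapped arrays share their RNA and count as 1 replicate. WT and KO samples come from different mice. The sources used here do not say whether the vehicle and PACAP RNA of a pair share mice, or how many mice a sample holds. The p-values thus measure only the spread between samples. In simulated data with 200 changed probes of 24897 and a log2 change of 3, the vehicle fit found 200 and called 7 others. Every simulated probe had the same spread, where real probes differ. The simulation thus does not show what share of real changes the fit finds. The members and lists were chosen with earlier results of these data known. Text names the 10 members, Adcyap1r1, in each list the called genes with the largest changes (at most 3 per direction), its defining genes, and the 10 genes most alike. Dmp1, Sost and Runx2 are named as defining genes of bone. Normalization, centring, outlier, probe, dye, p, fold and dim-probe alternatives were tried. The number of arrays limits the precision.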

Additional observations from a re-analysis of the deposited data

Results flagged for a closer look

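Of 65 cartilage, bone and osteoclast genes with a ratio on every array, 3 had a ratio of PACAP over vehicle on one side of 1 on all 4 WT arrays and on the other side on all 4 KO arrays. For Col9a1 the mean log2 ratio over the arrays was 0.43 for WT and -0.26 for KO, so KO minus WT was -0.68. Ank, a pyrophosphate transporter that limits mineral deposition, had 0.12 and -0.34, a difference of -0.46. Omd had 0.19 and -0.12, a difference of -0.31. All 3 lay above 1 in WT and below 1 in KO, a split that 0.862% of 28408 probes had, while 0.75% had the opposite one. Either split would have been flagged. Col9a1 is a member, and the members and lists were chosen with earlier results of these data known. None of these genes was called in any comparison. The difference between genotypes was not tested, and genotype cannot be told apart from slide.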

How the results depend on the processing

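The ratios of the 10 genes were recomputed under 7 settings in 4 comparisons. No called value changed direction. Of 40 values per setting, the normexp and loess ratio moved 15 by more than the spread between the 2 arrays and lost 4 calls, median centring moved 5, series table ratios 4 and the mean over all probes 3, all of Col9a1. Of these, 4 each under the loess, centring and series table settings were Matn1, whose arrays had no spread because the software set its ratio to 1, so that any shift counts as moved. The mean over all probes could change only the 8 values of the genes with a pair of probes, and keeping outlier spots changed none. A single array differs from the mean by construction and gained 2 calls (PACAP in Cy5) or 1 (PACAP in Cy3). With normexp and loess ratios the counts of called genes were 0 in WT at 30 min, 0 in WT at 60 min and 0 in KO at 30 min, in place of 2, 1 and 1. With only the array carrying PACAP in Cy5, KO at 30 min had 3 called (Col10a1 and Ibsp down, Col2a1 up). With only the array carrying PACAP in Cy3, WT at 30 min had 3 (Panx3 and Ibsp up, Col10a1 down), so Ibsp was called in opposite directions in the 2 comparisons, each on a single array. Without the p filter KO at 30 min had 2, Ibsp being added. With a 1.5-fold threshold WT at 60 min had 2, Col10a1 being added. With only probes well above background in both channels on both arrays, WT at 30 min had 1, without Panx3, and KO at 30 min 0. The median log2 ratio of the 10 ranged from 0.02 to 0.14 and from -0.13 to 0.25 in WT at 30 and 60 min, and from -0.13 to 0.01 and from -0.09 to -0.02 in KO.

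For vehicle at 60 against 30 min, leaving out each sample in turn gave 0 to 228 called probes, 228 without WT at 60 min and 9 without KO at 60 min, where a lone sample was assumed to vary like the others. Single readings with the replicate number as a block gave 484, and all 8 RNA samples 2834. For KO against WT, leaving out each sample gave 0 to 62 (62 without KO at 30 min), the replicate block 0, and all 8 samples 897. The other settings gave 0 for both, with smallest adjusted p-values of 0.11 to 0.25 for time and 0.26 to 0.73 for genotype. The Cy5 and Cy3 readings of a sample come from the same RNA, so they are no separate animals. Of the 10 genes most like the members, 2 stayed among the 10 highest without the samples of KO at 30 min, 4 had a Spearman rank within 10 (2 if tied genes are put in an arbitrary order), and 4 stayed without Matn1 in the mean. The causes were not tested.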
